A study of Mus musculus with 6 samples.

Results

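Slco4a1, Slco2b1, Slco3a1, Slco2a1 and Slco1a5 are genes of organic anion transporting polypeptides. These 5 genes were taken by name, with every probe set that the platform annotation gives to exactly 1 of them, which came to 14 of the 45037 probe sets tested and 5 of 18193 genes. Slco4a1 had 2 probe sets, Slco2b1 and Slco3a1 had 3 each, Slco2a1 had 4 and Slco1a5 had 2. The list was drawn up with the difference between the media already known, so the members' values in that comparison are a description and are given without a test.

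The polypeptides encoded in mouse by the Slco genes are membrane proteins that carry bulky organic anions across the plasma membrane without coupling to sodium. Their substrates include bile acids, thyroid hormones, prostaglandins and sulphated steroids, and family members differ in where they are made and in what they carry. Slco4a1 encodes a broadly expressed carrier of thyroid hormone, prostaglandins and taurocholate. Slco2b1 encodes a carrier of sulphated steroids, and Slco3a1 a carrier of prostaglandins and thyroxine. Slco2a1 encodes the prostaglandin transporter, which takes prostaglandins up before they are broken down. Slco1a5 encodes a rodent carrier of bile acids and thyroid hormone.

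The cells were RAW264.7, a mouse monocyte-macrophage line that can form osteoclast-like cells. They were kept for 24 hours in low-sodium medium (120 mmol/l, with mannitol holding the osmolality at 290 mOsm/l) or in normal-sodium medium (137 mmol/l), and 3 arrays per medium were analysed here of 4 biological replicates named in the labels. The protocol names 10 ng/ml of M-CSF and 30 ng/ml of RANKL, cytokines that drive osteoclast formation, without settling whether both media held them. Values are intensities from Affymetrix arrays, and differences are low minus normal sodium on a log2 scale after adding 1.

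The cells carried the markers of macrophages in both media. All 10 macrophage markers lay above background, with summed intensities of 143994.3 to 165560.7 on the low-sodium arrays and 133068.8 to 145914.4 on the normal-sodium arrays. Of the markers of hepatocytes, a main site of this family, 0 of 5 lay above background, and Alb and Ttr were among those near it. Kidney tubule markers lay above background in 2 of 6 (Kap and Lrp2), endothelial ones in 1 of 6 (Kdr), stromal ones in 2 of 5 (Col1a2 and Sp7) and lymphocyte ones in 1 of 5 (Cd8a). Osteoclast markers lay above it in 7 of 9, and their summed intensity was 6235.2 to 7480.8 in low sodium and 811.9 to 2204.4 in normal sodium. Atp6v0d2 read 1639, 1811 and 6156 in low sodium, most of the sum on low-sodium replicate 3, against 329, 302 and 152 in normal sodium. It was the 1 marker of the 9 on which the media did not overlap, against 17.5% of all genes. A limma fit described below, with a replicate 3 term and trended prior, called 5 of the 9 higher and 0 lower, against 6.01% of all genes. These were Atp6v0d2 (3.41), Ocstamp (2.76), Dcstamp (1.53), Ctsk (1.15) and Mmp9 (1.05). Dcstamp was also called without any 1 of the 6 arrays, whereas Ctsk and Mmp9 were called in 2 of these 6 fits. In the limma fit without further terms 0 of the 9 passed. Oscar and Itgb3 were slightly lower in low sodium (-0.17 ± 0.40 and -0.23 ± 0.43, SE), each by less than its error. Itgb3 and Calcr were near background, and all markers but Oscar and Itgb3 were higher on average. Acp5 barely differed in replicates 1 and 2 (-0.08 and 0.00). The osteoclast sum, though not every marker in it, moved with the media in the opposite direction to Slco4a1. Its part in the results below was not tested. The replicate 3 arrays of both media stood apart, since spiked Bacillus control transcripts averaged a log2 intensity of 7.68 and 7.76 there and 9.12 to 9.52 on the other 4 arrays. For this reason differences are also given by replicate number.

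The promoter of Slco4a1 is shown because this gene alone among the members had a strong signal in these cells. The 300 bases run from 250 before to 50 after a RefSeq transcript start (GRCm38.p6, chr2:180455995-180456294, plus strand), written from 5′ to 3′, and capitals mark matches to the GC box.
Slco4a1: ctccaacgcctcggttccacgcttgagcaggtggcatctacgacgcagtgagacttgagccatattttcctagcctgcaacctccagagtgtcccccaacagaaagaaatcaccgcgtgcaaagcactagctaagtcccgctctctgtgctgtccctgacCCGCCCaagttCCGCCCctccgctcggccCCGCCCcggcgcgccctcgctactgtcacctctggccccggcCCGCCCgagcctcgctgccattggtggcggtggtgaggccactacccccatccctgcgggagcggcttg
Both strands were searched for the GC box (GGGCGG), the core of the tonicity element (TGGAAA), the AP-1 site (TGANTCA), the E-box (CACGTG) and the TATA box (TATAAA), none of which overlapped another here. This window held 4 GC boxes, all read on the opposite strand as CCGCCC, at 90, 79, 61 and 19 bases before the start, and the other motifs were not found in these letters. A GC box was present in 35.7% of 32851 promoter windows of the same length, and the tonicity core in 21.4%. The window of a second annotated Slco4a1 start held no match to any of the motifs. The GC content was 65.3% in the first window and 55.7% in the second. The arrays did not measure binding at either window, and the matches are a description of the letters.

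Slco4a1 was bright in both media and far dimmer in low sodium. On its brighter probe set, 1438160_x_at, the intensity was 485, 469 and 269 on the low-sodium arrays, against 4485, 4702 and 3034 on the normal-sodium arrays. The highest low-sodium array thus lay below the lowest normal-sodium array, with a wide gap between the media. The mean log2 intensity was 8.63 ± 0.48 in low sodium and 11.97 ± 0.35 in normal sodium (SD, n = 3 each). The difference was -3.34 ± 0.34 (SE), so the low-sodium signal was 9.88% of the normal-sodium signal. Across replicate numbers the difference was -3.21, -3.32 and -3.49, a spread that is narrow beside its size.

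The other Slco4a1 probe set, 1455803_at, gave the same picture. Its intensity was 445, 363 and 250 on the low-sodium arrays, against 4188, 4484 and 2582 on the normal-sodium arrays, again without overlap. The difference was -3.41 ± 0.35 (SE), or 9.44% of the normal-sodium signal, and -3.23, -3.62 and -3.36 by replicate number. The suffix of the first probe set marks probes that may also bind other transcripts, whereas the second carries no such mark. Over the 6 arrays the 2 probe sets correlated at a Pearson r of 0.998, a description only, since the arrays share the difference between the media. On both probe sets the replicate 3 array was the dimmest in its medium, in low as in normal sodium, while the difference between the media was close in replicate 3 and in replicates 1 and 2 (-3.49 and -3.26 on 1438160_x_at, -3.36 and -3.43 on 1455803_at).

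Adding 16 in place of 1 before the log changed the Slco4a1 differences little, to -3.29 and -3.35, because the gene was bright in both media. Among 11380 genes whose mean reached the median of all probe sets in at least 1 medium, Slco4a1 had the fall of rank 3, and 4 genes had differences below -3. This rank describes the arrays by which the gene was chosen. On these arrays fewer cells that make a transcript and less transcript per cell cannot be told apart.

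**Figure D1:**
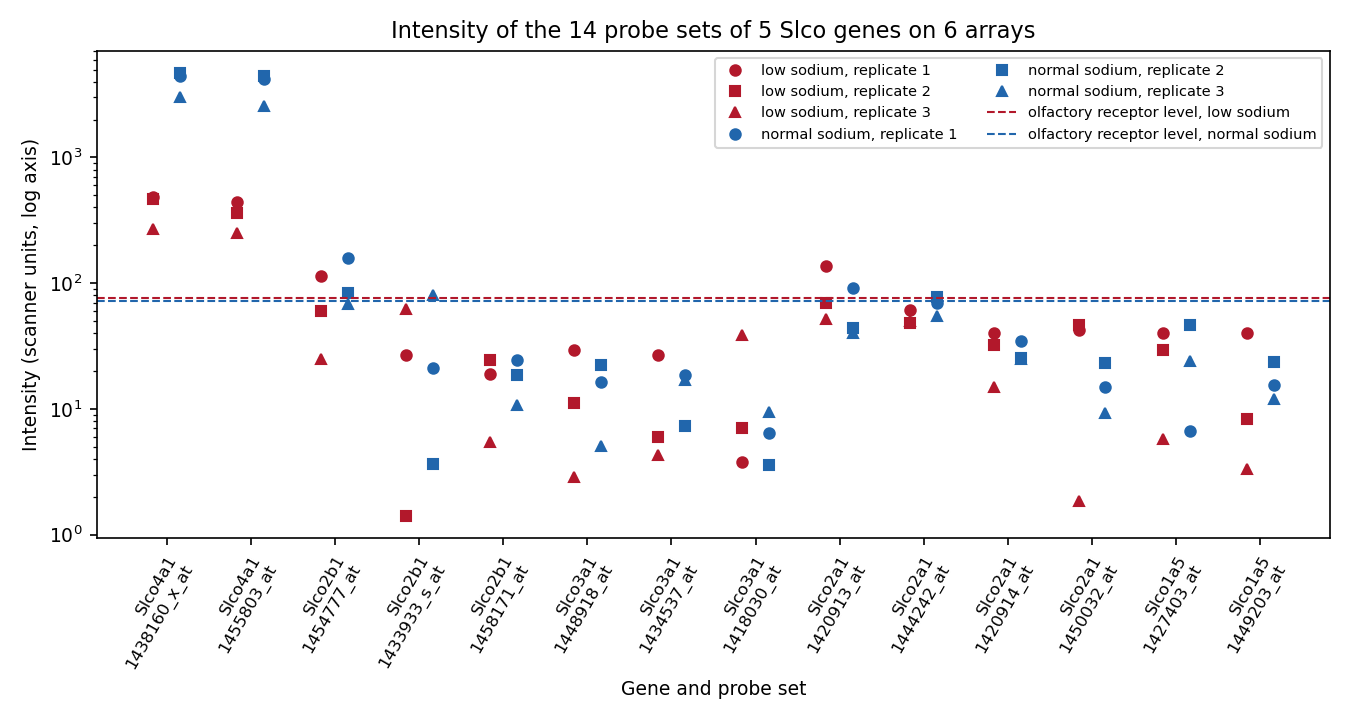
Intensity (log axis, scanner units) of the 14 probe sets of the 5 genes, with low sodium in red on the left and normal sodium in blue on the right of each position, 1 point per array and shapes for replicate numbers; dashed lines give the olfactory receptor level, 76.5 in low and 72.3 in normal sodium. Both Slco4a1 probe sets lie above the lines on all 6 arrays with the media apart, whereas the points of the other 12 lie around or below them and overlap between the media.

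The other 4 members were at or near background. Background was set from 44 probe sets of olfactory receptor genes, which macrophages are not known to use in quantity, and its level was the 95th percentile of their group means, at a log2 intensity of 6.28 in low sodium and 6.20 in normal sodium. A probe set whose mean lay under this level in both media was called near background. This held for 10 of the 14 member probe sets. Slco3a1 and Slco1a5 were near background on every probe set, Slco2b1 on 2 of 3 and Slco2a1 on 3 of 4. In none of the 12 probe sets of these genes were the media apart, against 2 of 2 for Slco4a1 and 14.9% of all probe sets tested, and since the members were chosen from this comparison nothing is read from these counts.

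Slco2b1 had 1 probe set just above the level, 1454777_at, whose mean log2 intensity passed it in normal sodium only (5.82 in low sodium and 6.60 in normal sodium). Its intensity was 113, 60.3 and 24.7 on the low-sodium arrays, against 158, 82.8 and 68.0 on the normal-sodium arrays. It was lower in low sodium in all 3 replicate numbers (-0.47, -0.45 and -1.42), but the media overlapped. Its difference of -0.78 ± 0.63 (SE) was close to its error and became -0.61 with 16 added. The other 2 probe sets of Slco2b1, 1433933_s_at and 1458171_at, were near background and differed by -0.33 ± 1.55 and -0.27 ± 0.61, with signs that changed between replicate numbers. Intensities of 1433933_s_at ran from 1.40 to 61.9 in low sodium and from 3.66 to 79.8 in normal sodium, so arrays of 1 medium spread far more than the media differed.

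Slco2a1, the prostaglandin transporter gene, likewise had 1 probe set at the edge of background. Probe set 1420913_at had intensities of 138, 69.8 and 51.7 in low sodium, against 92.2, 44.2 and 40.3 in normal sodium, so only its low-sodium mean (6.33 on the log2 scale) passed the level. It was higher in low sodium in all 3 replicate numbers (0.57, 0.65 and 0.35), with a difference of 0.52 ± 0.50 (SE) and overlapping media. The next probe set, 1444242_at, lay just under the level, with means of 5.75 in low and 6.08 in normal sodium, and it went the other way in all 3 replicate numbers (-0.18, -0.68 and -0.13). The remaining 2 probe sets of the gene differed by -0.05 and 0.20, with errors of 0.41 and 1.16. The 4 probe sets of Slco2a1 therefore gave no common direction.

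Slco3a1 stayed dim on all 3 probe sets, with intensities between 2.87 and 39.0. Probe set 1448918_at had intensities of 29.5, 11.1 and 2.87 in low sodium, against 16.4, 22.4 and 5.02 in normal sodium. The 3 differences were -0.26, -0.51 and 0.70, with errors of 0.72 to 0.89. With 16 added they shrank to -0.06, -0.16 and 0.39. None kept 1 sign over the replicate numbers.

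Slco1a5 was also near background, with intensities between 3.34 and 46.5. Probe set 1427403_at had intensities of 40.5, 29.1 and 5.78 in low sodium and 6.66, 46.5 and 24.1 in normal sodium, a difference of -0.04 ± 0.95 (SE). Probe set 1449203_at differed by -0.55 ± 0.84, which became -0.13 with 16 added. The replicate numbers disagreed, with 2.44, -0.66 and -1.89 on the first and 1.32, -1.39 and -1.58 on the second. Of the 12 probe sets of the 4 dim members, 3 kept their sign in all replicate numbers.

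**Figure D2:**
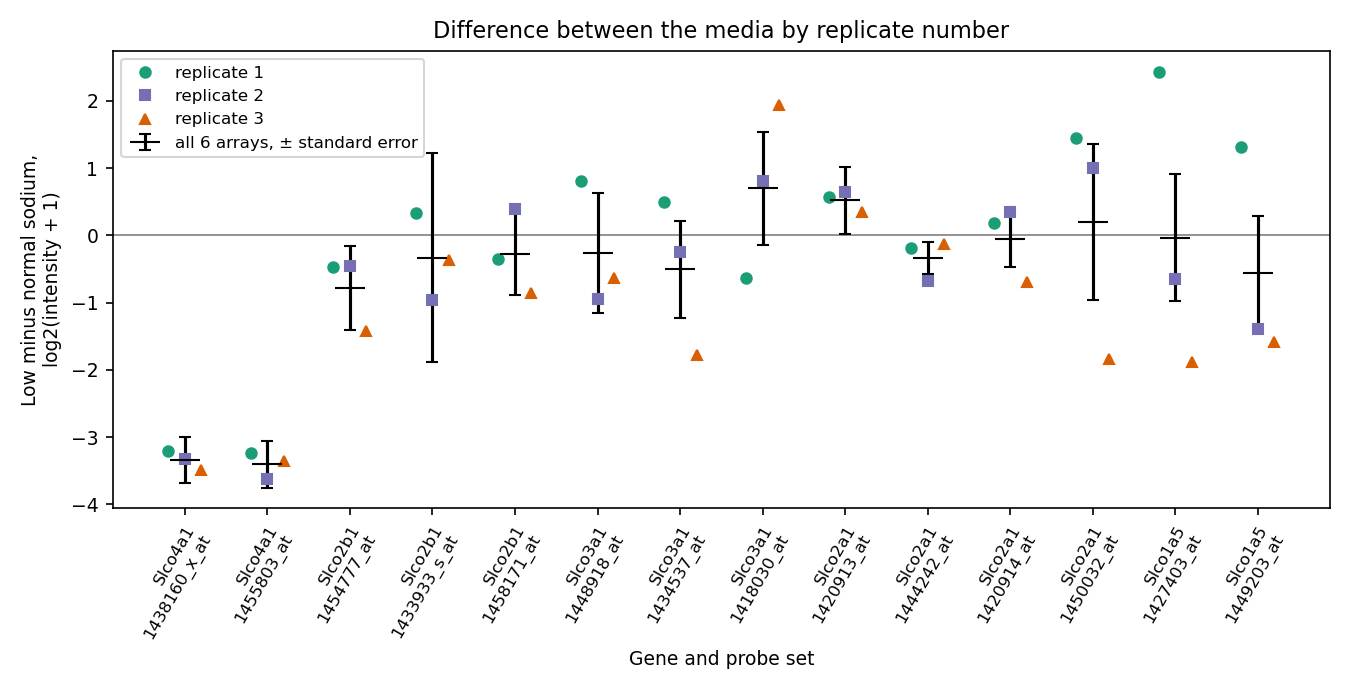
Low minus normal sodium on the log2(intensity + 1) scale for the 14 probe sets, with 1 coloured point per replicate number and a black bar for the difference over all 6 arrays ± its standard error. The Slco4a1 points lie between -3.21 and -3.62, and for most of the other probe sets the replicate numbers fall on both sides of 0.

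The rest of the family was near background on every probe set. A further 10 Slco genes were measured by 18 probe sets, all 18 of them near background, with intensities from 0.54 to 75.7. Slco1c1, Slco1b2, Slco1a4, Slco1a1, Slco1a6 and Slco1a5 lie on chromosome 6 in the RefSeq annotation, and none of them had a probe set above the level. Slco1b2, a liver carrier of bile acids and drugs, had the 1 probe set among the 18 on which the media did not overlap, against 14.9% of all probe sets, and it was singled out after its values were seen. Its probe set 1427825_at read 12.8, 14.8 and 6.95 in low sodium, against 75.7, 27.4 and 36.8 in normal sodium. The Slco1b2 probe set with the highest mean, 1449394_at, had a difference of 1.06 against -1.86 on 1427825_at, so probe sets of this dim gene pointed in opposite directions. Of all 15 Slco genes measured, with 32 probe sets, Slco4a1 was thus the one with signal above the olfactory receptor level in both media on every probe set.

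No probe set passed the limma test without further terms, and the tests on genes outside the members were read against that. With Benjamini-Hochberg adjustment over all 45037 probe sets 0 passed (0.0%), while 2868 (6.37%) had an unadjusted p under 0.05, as did 6.39% of genes. A second limma fit had a term for replicate 3 against replicates 1 and 2 and a trended variance prior, and was known from earlier work on these arrays to give many more calls. It called 1840 probe sets (4.09%) and 1094 of 18193 genes (6.01%), each gene represented by its brightest probe set, with 3.09% of genes higher and 2.92% lower. Verbs such as rose and fell refer to this second fit. With the same term and a constant prior 0 probe sets passed, as with the replicate number as a block, so the calls below rest on the term and the trended prior together.

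Of 84 measured genes in 7 lists of related function, 31 lay above background, and 2 rose and 1 fell in the second fit, which called 10.2% of all genes above background. Of the 84, 0 passed the first fit (lowest adjusted p = 0.696 by limma, 3 at an unadjusted p under 0.05). The media did not overlap for 10 of the 84, against 17.5% of all genes. The median difference of the 84 genes was 0.12, and that of all genes was -0.01.

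The 3 calls were all in the list for thyroid hormone transport, deiodination and receptors, which held 11 measured genes, 8 above background. They were Slc7a8, Slc3a2 and Slc7a5, 2 light chain genes and the heavy chain gene of amino acid exchangers that also carry thyroid hormone. Slc7a8, the gene of the light chain LAT2, had intensities of 2298, 2172 and 1091 in low sodium, against 905, 836 and 402 in normal sodium. It rose by 1.39 ± 0.09 (SE, adjusted p = 0.000718, limma with the replicate 3 term and trended prior), with 1.34, 1.38 and 1.44 by replicate number and no overlap. The call was lost with the replicate number as a block (adjusted p = 0.583, limma with a constant prior) and without further terms (adjusted p = 0.743, limma). In the second fit Slc7a8 was also called without any 1 of the 6 arrays.

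Slc3a2, the gene of the heavy chain that partners both light chains, rose by 0.50 ± 0.11 (adjusted p = 0.0425, limma with the replicate 3 term and trended prior). That call was lost with the replicate number as a block (adjusted p = 0.597, limma with a constant prior) and without further terms (adjusted p = 0.825, limma). Its intensities were 9816, 10312 and 8909 in low sodium, against 8001, 8011 and 4971 in normal sodium. Slc7a5, the gene of the light chain LAT1, fell by 0.41 (SE 0.09, adjusted p = 0.0456, limma with the replicate 3 term and trended prior), at 4081, 4081 and 1822 in low sodium against 5092, 4902 and 2829 in normal sodium, where the media overlapped. It was likewise lost with the block (adjusted p = 0.606, limma with a constant prior) and without further terms (adjusted p = 0.914, limma). The calls of Slc3a2 and Slc7a5 were each lost without replicate 1 or 2 of either medium, with adjusted p up to 0.144 for Slc3a2 and 0.146 for Slc7a5 by limma. The nuclear receptor gene Rxra, with 0.35, did not pass, nor did Slc16a10, which encodes a carrier of aromatic amino acids and thyroid hormone, with 0.33. The median difference in this list was 0.21.

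Exporters of organic anions and drugs gave 0 calls in 15 genes, 6 of them above background, and their median difference was 0.08. Abcb4, the phospholipid exporter gene, had intensities of 1797, 1776 and 2421 in low sodium, against 1500, 1308 and 1137 in normal sodium, a difference of 0.60 that did not pass (adjusted p = 0.0761, limma with the replicate 3 term and trended prior). Abcb1b, a multidrug exporter gene, had 889, 850 and 526 in low sodium, against 1131, 1115 and 890 in normal sodium, a difference of -0.50 just outside the threshold (adjusted p = 0.05, same fit). The media did not overlap on either gene, in opposite directions, though on Abcb1b the closest arrays of the 2 media nearly met (889 and 890). Both genes passed when the replicate 3 array of either medium was left out (adjusted p down to 0.0431 for Abcb4 and 0.0249 for Abcb1b by limma). The replicate 3 term then fits the remaining replicate 3 array exactly. Both leave-outs thus rest on the same comparison, that of replicates 1 and 2. Abcc1, a bright exporter gene for glutathione conjugates and leukotrienes, differed by 0.34 and did not pass.

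Prostaglandin E2 genes, which bear on the substrates of Slco4a1, Slco2a1 and Slco3a1, gave 0 calls in 11, with 7 above background and a median difference of -0.22. Ptges, the inducible synthase gene, had 313, 279 and 230 in low sodium, against 220, 172 and 57.8 in normal sodium, and its difference of 1.06 did not pass (adjusted p = 0.105, limma with the replicate 3 term and trended prior). Ptgr2 and Ptgr1, reductase genes of prostaglandin breakdown, had differences of 0.54 and -0.28. Hpgd, the gene of the enzyme that inactivates prostaglandins after uptake, was near background, as were the receptor genes Ptger1, Ptger2 and Ptger3. Pla2g4a, the gene of the phospholipase that frees arachidonic acid, named after its values were seen, had a difference of -0.22 that did not pass (adjusted p = 0.167, limma with the replicate 3 term and trended prior) and passed without the replicate 3 array of either medium (adjusted p down to 0.00756).

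The 21 measured genes of the Slc22 family, the other large family of organic anion and cation carriers, gave 0 calls and lay above background in 4, with a median difference of 0.27. Slc22a12, the urate exchanger gene, differed by 0.38, Slc22a15 by 0.29 and Slc22a17 by 0.27. The kidney anion transporter genes Slc22a6 and Slc22a8 were near background. The Slc10 family, whose bile acid carriers depend on sodium unlike those of the Slco family, gave 0 calls in 5 genes, with 3 above background. Slc10a3, Slc10a6 and Slc10a7 had differences of 0.07, -0.18 and 0.01, and the bile acid transporter genes Slc10a1 and Slc10a2 were near background.

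Sulphation genes, which make and remove the sulphate on steroids that several Slco proteins carry, gave 0 calls in 11 and a median difference of 0.51, with 3 above background. Sumf1, whose product activates sulphatases, had 1375, 1519 and 1679 in low sodium, against 1056, 1183 and 973 in normal sodium. Its difference of 0.51 missed the threshold (adjusted p = 0.0525, limma with the replicate 3 term and trended prior) and passed without the replicate 3 array of either medium (adjusted p down to 0.0478 by limma). Sumf2 differed by 0.82 and Papss1, which makes the sulphate donor, by -0.16, and neither passed.

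**Figure D3:**
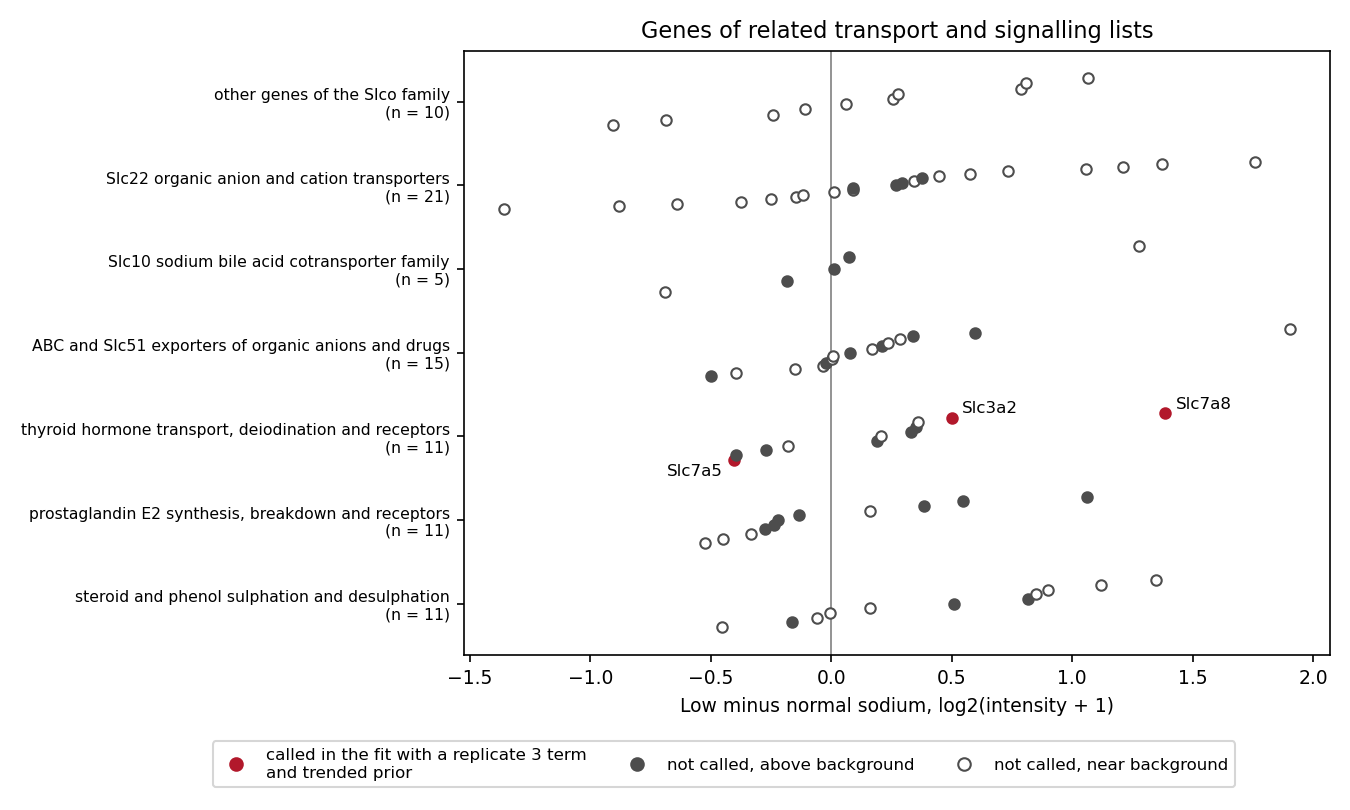
Low minus normal sodium on the log2(intensity + 1) scale for the 84 measured genes of 7 related lists, 1 point per gene; filled points lie above background, open points near it, and red points were called in the limma fit with a replicate 3 term and trended prior. The red points are Slc7a8 at 1.39, Slc3a2 at 0.50 and Slc7a5 at -0.41, all in the thyroid hormone list.

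The genes whose values ran most like those of Slco4a1 were sought among the 10879 genes in the brighter part of the table (mean not under the median probe set), by Pearson correlation over the 6 arrays. The 5 highest were Prmt1 (r = 0.9991), Kif2c (0.9984), Hmgn5 (0.9982), Sae1 (0.9977) and Fam13c (0.9976). Prmt1 encodes the main arginine methyltransferase, Kif2c a kinesin that shortens microtubules, Hmgn5 a nucleosome-binding protein and Sae1 a subunit of the SUMO-activating enzyme. Each was lower in low sodium and dimmest in the replicate 3 array of its medium, as Slco4a1 was. Their differences were smaller than that of Slco4a1, at -0.51 in Prmt1, -0.73 in Kif2c, -0.97 in Hmgn5, -0.46 in Sae1 and -1.44 in Fam13c. Fam13c had intensities of 445, 408 and 318 in low sodium, against 1081, 1179 and 901 in normal sodium. A gene with 2 separate levels in the 2 media correlates highly with any other such gene over 6 arrays, so the coefficients are a description.

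**Figure D4:**
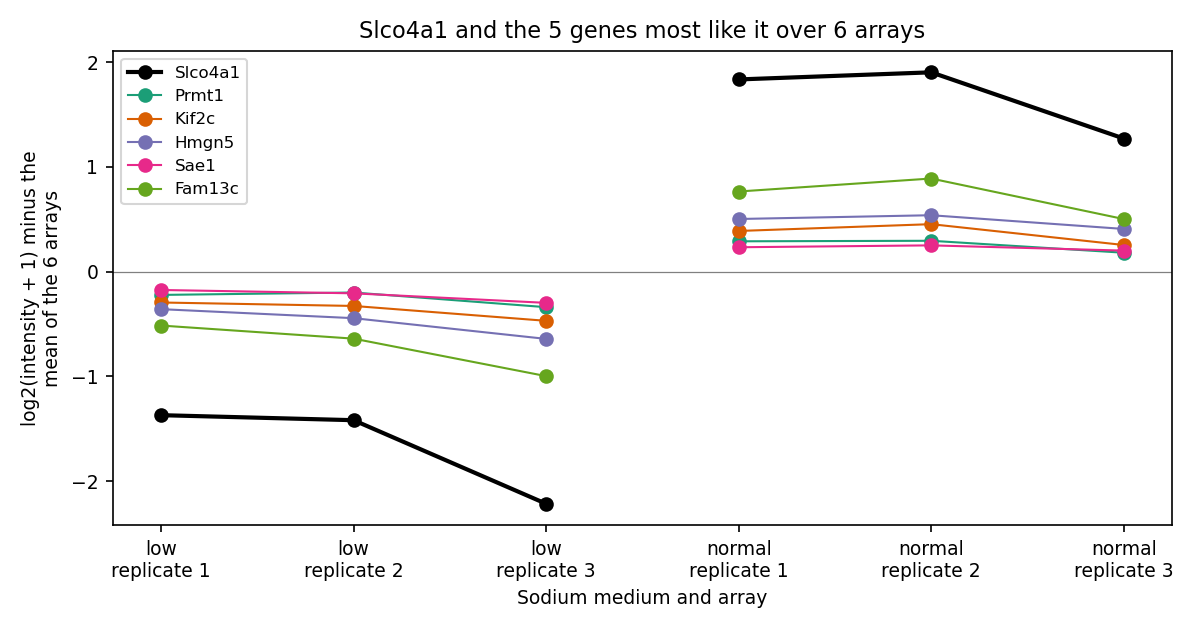
Deviation of log2(intensity + 1) from the mean of the 6 arrays for Slco4a1 (black) and the 5 genes with the highest correlation to it, low-sodium arrays on the left and normal-sodium arrays on the right. All 6 genes lie below 0 on the low-sodium arrays and above 0 on the normal-sodium arrays, with the widest separation in Slco4a1.

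Genes beside Slco4a1 on chromosome 2 that lay above background did not share its difference. The 5 measured protein-coding genes on either side in the RefSeq order, chosen after the data were seen, were Hrh3, Osbpl2, Lama5, Cables2 and Gata5 on one side and Ntsr1, Mrgbp, Ogfr, Col9a3 and Tcfl5 on the other. Hrh3, Gata5, Ntsr1, Col9a3 and Tcfl5 were near background, where a fall like that of Slco4a1 could not be seen. Of the 10 genes 0 passed either limma fit, against 6.01% of all genes and 10.2% of genes above background in the second. Osbpl2 passed the second without the replicate 3 array of either medium (adjusted p down to 0.0166 by limma), which rests on replicates 1 and 2 alone. Bright neighbours had small differences, at 0.26 in Osbpl2, -0.06 in Cables2, -0.21 in Mrgbp and 0.07 in Ogfr. Lama5, dimmer but above background, differed by -0.14. Ntsr1, the neurotensin receptor gene next to Slco4a1, was near background, with 41.5, 48.3 and 47.8 in low sodium against 23.8, 28.1 and 25.4 in normal sodium. The media did not overlap there, in the direction opposite to Slco4a1, and its difference of 0.81 did not pass.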

How the data were processed

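The authors deposited linear intensities, with 1 value for each probe set on each array. RNA was labelled with biotin, per the labels. Partek appears in the submitters' processing notes, while how probes were summarised is not given in the sources. All 6 arrays had a mean intensity of 500.0 once the lowest and highest 2% of values were set aside, as global scaling by the authors would give. The depth of an array cannot be counted, and the number of arrays limits the precision.

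The members and gene lists were chosen with earlier results of these data known. Control probe sets (64) were left out. Values were tested as log2(intensity + 1) with limma 3.58.1 under R 4.3.3 (eBayes, two-sided, Benjamini-Hochberg over 45037 probe sets, threshold 0.05), without and with a term for replicate 3, the latter with a trended prior. The fit without further terms was tested on simulated data with independent noise and no replicate 3 effect. The fit with the replicate 3 term was not tested in this way. The brightest probe set stood for a gene. Symbols came from the platform annotation, updated through RefSeq (GRCm38.p6). Of 99 listed genes 84 were matched. Named were all members, all list genes called, up to 3 genes above background with the smallest p per list, and the 5 genes most like Slco4a1, with others named after their values were seen. Promoters came from RefSeq.

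By the deviations from the group means the 2 replicate 3 arrays matched each other across the media (r = 0.51). Numbers 1 and 2 could not be told apart. Like numbers correlated at 0.350 and 0.329. Low-sodium replicate 1 with normal-sodium replicate 2 gave 0.346, and low-sodium replicate 2 with normal-sodium replicate 1 gave 0.325. Differences by replicate number thus rest on the labels alone for numbers 1 and 2. That the cultures were separate is stated in the labels only as biological replicates.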

Additional observations from a re-analysis of the deposited data

How the results depend on the processing

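The Slco4a1 difference of -3.34 stayed between -3.07 and -3.54 when 1 array at a time was left out, and was -3.29 with 16 added, -3.31 after quantile normalization, -3.34 after median centring, -3.26 in replicates 1 and 2 and -3.49 in replicate 3. With the replicate number as a block it was again -3.34, as the balanced design fixes in advance. That block, with a constant prior, called 0 probe sets, so the 3 calls of the thyroid hormone list became 0. Of 156 alternative values for the other 12 member probe sets, 151 moved by less than 1 SD between replicates and 20 had the other sign. The block and the replicate 3 term could not move a difference in this balanced design, and the SD of dim probe sets was wide. The count of 151 is therefore not a measure of stability. The number of member probe sets near background was 9 with the median of all probe sets as the level and 10 or 11 otherwise, 11 without low-sodium replicate 1.

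The limma count of 0 probe sets became 1 with 16 added, 33 with a trended prior, 2 among brighter probe sets, 1840 with the replicate 3 term and trended prior (0 with that term and a constant prior, also 0 in the thyroid hormone list), and 3714 in replicates 1 and 2 with that prior. The replicate 3 term with a trended prior gave 380 to 3684 probe sets when 1 array was left out, namely 485, 380 and 3684 without replicate 1, 2 or 3 of low sodium and 541, 392 and 3644 without those of normal sodium. In that fit the thyroid hormone list gave 3 calls, and 1 to 3 with 1 array left out, with 1 where replicate 1 or 2 of either medium was left out. Without either replicate 3 array, and in replicates 1 and 2 with that prior, exporters gave 2 calls, prostaglandin E2 genes 1, sulphation genes 1 and the thyroid hormone list 3. With the other arrays left out in turn these 3 further lists gave 0, and the other Slco genes and the Slc22 and Slc10 lists gave 0 in each fit run. Leaving out either replicate 3 array and using replicates 1 and 2 alone rest on the same comparison. The design thus fixed the likeness of these settings in advance. The trended prior was taken up with its effect on the counts known. Leaving out arrays in the fit with the replicate 3 term and trended prior, and the trended prior in replicates 1 and 2, were chosen after seeing the data.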
